A study of Rattus norvegicus with 6 samples.

Results

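Of the 14607 genes listed for the pericytes of mid-capillaries (mcPCs) and the smooth muscle cells of arterioles (VSMCs) in the rat brain, 112 carry the symbols of cell cycle and DNA replication genes. They were taken by a rule on the symbol: the A, B, D and E cyclins, the numbered cyclin-dependent kinases (CDKs), genes named Cdkn, the E2F and retinoblastoma families, the MCM and ORC subunits with their loading factors, *Pcna* and the nucleotide synthesis enzymes, the mitotic kinases, checkpoint and CDC25 genes, the CENP genes, and spindle and proliferation markers led by *Mki67* and *Top2a*.

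The cells came from the cortex of male Sprague-Dawley rats 4 to 5 weeks old, several animals being pooled for an isolation, and RNA-Seq was run on 3 VSMC and 3 mcPC samples. Brains were perfused to clear blood before a mild digestion and a pass through a fine mesh. VSMCs were released from the arterioles kept on the mesh and selected positively with the lectin GSA after CD31+ and CD11b+ cells had been removed. mcPCs were what remained of the filtrate once CD31+, CD11b+, GLAST+ and O4+ cells were taken out, so any other cell of the filtrate that lacks these 4 antigens stays with them.

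A cell enters the cycle when D-type cyclins with CDK4 or CDK6, and then cyclin E with CDK2, phosphorylate the retinoblastoma protein and free E2F to switch on the S phase genes. Origins are marked by ORC, loaded with the MCM helicase by CDC6 and CDT1, and fired. Cyclin A, cyclin B and CDK1 then drive mitosis. Many mitotic genes are repressed in resting cells through CHR elements in their promoters and activated in dividing cells, where NF-Y bound to CCAAT boxes takes part. Inhibitors of the CIP/KIP family such as p21 (*Cdkn1a*) hold the kinases in check. Mural cells of the adult brain are mostly quiescent, and their cyclins and inhibitors are also used outside division.

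The expression values used are the authors' means, 1 per cell type, so neither a spread between samples nor a test was computed from them, and the standard errors and p-values of the authors' own comparison were not used. Intervals printed here are 95% exact intervals of the reads behind a value and cover counting error only. Levels are in TPM, a transcript abundance that is scaled by transcript length and to a common total. They can be set side by side within a cell type, and where a pair of TPM values is given for a gene the first is that of VSMCs and the second that of mcPCs. Differences are log2 ratios of the mean normalized counts of mcPCs over VSMCs with a pseudocount of 1, positive when higher in mcPCs, and a gene was called past 2-fold at a log2 ratio of at least 1 in either direction. In such bulk samples fewer cells of a type and less RNA per cell cannot be told apart.

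VSMC samples held 62.0 M reads on average and mcPC samples 48.0 M. The 8 smooth muscle markers summed to 44977 TPM in VSMCs against 82.0 TPM in mcPCs, led by *Tagln*, *Acta2* and *Myh11*. All 9 mural and pericyte markers were listed in both, summing to 11207 and 4933 TPM, with *Abcc9* at 12.4 and 320 TPM and *Kcnj8* at 17.2 and 346 TPM. Erythroid and globin genes took 0.869% of the TPM of VSMCs and 66.9% of the TPM of mcPCs, and the median gene stood at 12.7 TPM in the former and at 3.59 TPM in the latter. A TPM ratio therefore starts from a median of -1.72 on the log2 scale, while the normalized counts start from a median of 0.01.

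Against that background the cell cycle genes were split. Of the 112, 46 (41.1%) passed 2-fold toward mcPCs, against 21.6% of all genes, and 12 (10.7%) passed it toward VSMCs, against 13.8%. The other 54 lay within 2-fold. The median log2 ratio was 0.67 over the members and 0.01 over all genes. A ratio above 0 was found in 74 of the 112 members and in 7399 of all 14607 genes. On TPM as it stands, without any shift to the median gene, the split was 12 higher in mcPCs and 57 higher in VSMCs, against 7% and 72.3% of all genes. With counts scaled to the same total it was 38 and 20, against 15.4% and 28.7%. A limit of 1.5-fold gave 57 and 19 members, against 30% and 23.3% of all genes, and one of 4-fold gave 32 and 5, against 12% and 5.64%. Among the 89 members with at least 0.8 TPM in VSMCs, 25 passed 2-fold toward mcPCs and 11 toward VSMCs, against 13% and 15.7% of all genes at that level. The authors left genes below this level out of their final set, because endothelial transcripts were more abundant in mcPCs. Such genes are kept here.

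**Figure D1:**
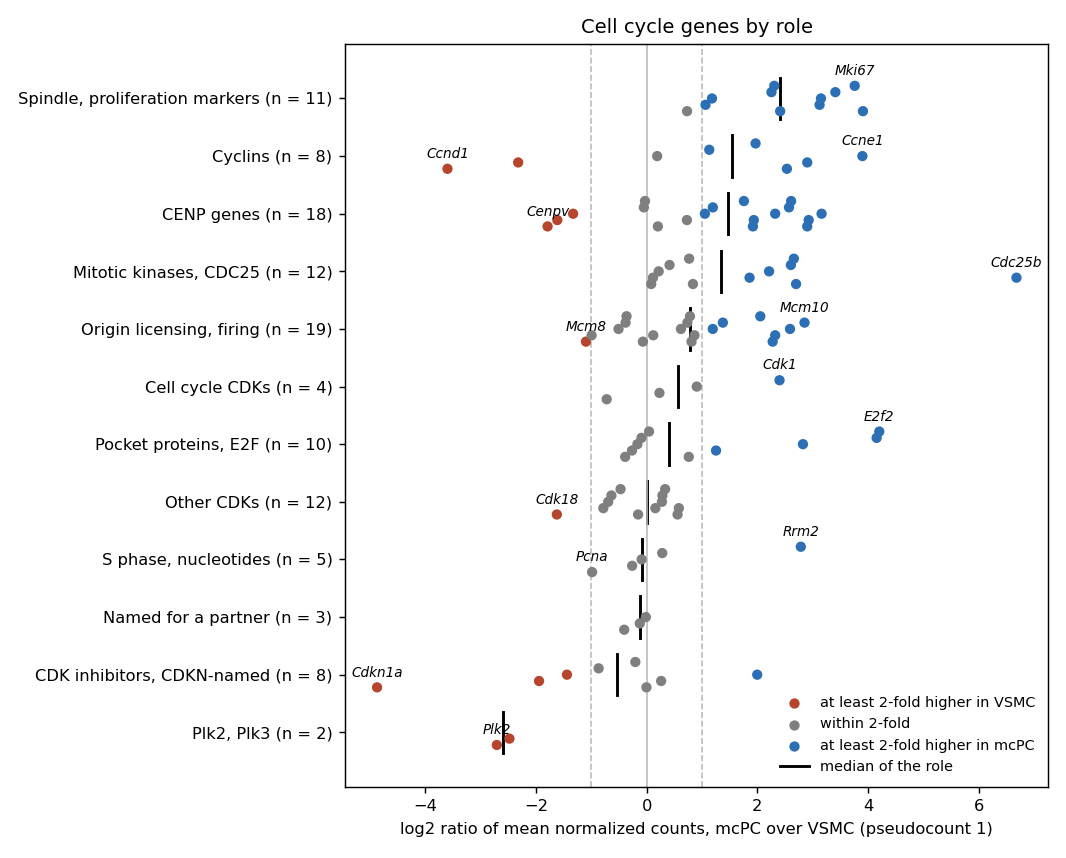
Log2 ratio of mean normalized counts, mcPC over VSMC with a pseudocount of 1, for each of the 112 genes (1 point a gene) by role, with the median of the role as a black bar and 2-fold as dashed lines. All 11 spindle and proliferation markers lie above 0, while *Cdkn1a*, at -4.87, and *Cdc25b*, at 6.68, mark the ends.

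The members higher in mcPCs were low in VSMCs, where 0 of the 46 exceeded the median gene in TPM, and 11 of the 46 exceeded it in mcPCs. Their median level was 0.930 TPM for VSMCs against 1.26 TPM for mcPCs, and 44 of the 46 stayed under 5 TPM in mcPCs, the exceptions being *Cdc25b* and *E2f2*. For the 12 members on the VSMC side the medians were 31.9 and 2.57 TPM. Of the 46, 38 were also higher in mcPCs in TPM as it stands, and 42 had a whole counting interval past 2-fold. Of the 12, 10 had. Both groups were formed by the ratio, so these figures partly follow from that choice. They were not computed for all genes past 2-fold.

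The share past 2-fold depended on abundance, and so did that of all genes. Genes of the whole table were divided at the median of the mean normalized count, 751, a division chosen after seeing the data. Below it 42 of 65 members (64.6%) passed 2-fold toward mcPCs, against 32.1% of all genes there. Above it 4 of 47 did (8.51%), against 11.2%. Toward VSMCs the less abundant members gave 6 of 65 (9.23%, against 10.8%) and the more abundant ones 6 of 47 (12.8%, against 16.7%). The excess over all genes lay in the less abundant members.

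**Figure D2:**
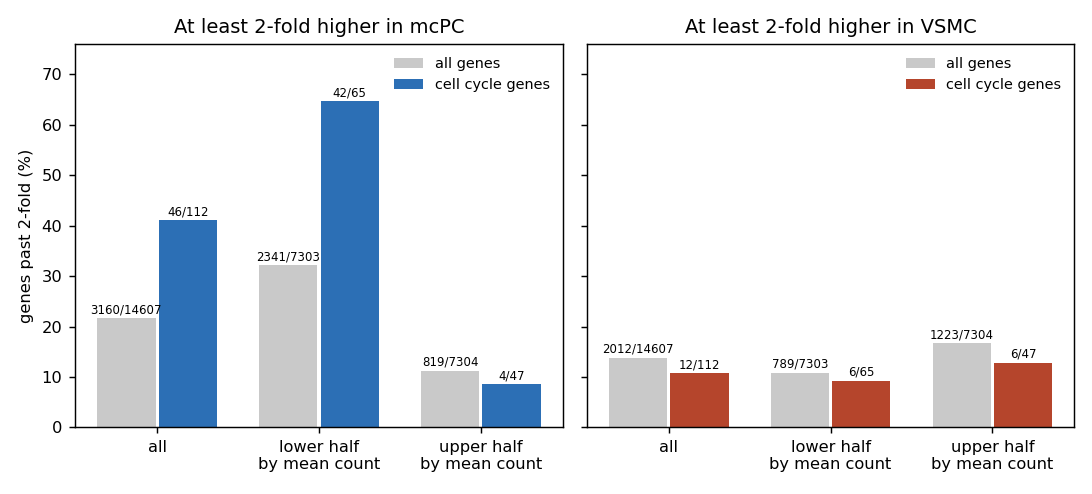
Share of genes at least 2-fold higher in mcPCs (left) or in VSMCs (right), in percent, for all genes (grey) and the cell cycle genes (colour), over the whole table and on either side of the median of the mean normalized count, with counts above the bars. Toward mcPCs the bar of the cell cycle genes is 64.6% below the median, where that of all genes is 32.1%, and 8.51% against 11.2% above it.

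Promoter sequence is shown for 6 genes picked from both directions, which need not be typical of them. *Mki67*, *Top2a*, *Cdk1* and *Cdc20* are mitotic genes higher in mcPCs. *Cdc25b* is the member furthest toward mcPCs, and *Cdkn1a* the member furthest toward VSMCs. Each run is the 200 bases before the RefSeq start of the gene in the GRCr8 assembly, 5′ to 3′ on the gene's strand, at chr1:199952594-199952793 (minus strand) for *Mki67*, chr10:84473094-84473293 (minus) for *Top2a*, chr20:19265093-19265292 (plus) for *Cdk1*, chr5:137255800-137255999 (minus) for *Cdc20*, chr3:138859973-138860172 (plus) for *Cdc25b* and chr20:7150732-7150931 (plus) for *Cdkn1a*. Capitals mark a CCAAT box (CCAAT, or ATTGG when read on the other strand), a CHR element (TTTGAA on either strand) or an E2F-like site. The letters taken as E2F-like, on either strand, were TTCCCGC and its relatives that differ at the third base (TTGCCGC), at the fourth (TTCGCGC) or at both (TTGGCGC).
Mki67: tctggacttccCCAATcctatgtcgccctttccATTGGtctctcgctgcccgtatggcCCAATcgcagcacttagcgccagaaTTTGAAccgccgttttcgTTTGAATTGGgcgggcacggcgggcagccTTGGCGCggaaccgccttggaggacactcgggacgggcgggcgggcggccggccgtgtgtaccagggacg
Top2a: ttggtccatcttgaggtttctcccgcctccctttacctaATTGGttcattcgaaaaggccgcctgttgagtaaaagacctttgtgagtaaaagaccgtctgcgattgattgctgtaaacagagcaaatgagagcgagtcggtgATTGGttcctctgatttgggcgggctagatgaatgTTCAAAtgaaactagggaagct
Cdk1: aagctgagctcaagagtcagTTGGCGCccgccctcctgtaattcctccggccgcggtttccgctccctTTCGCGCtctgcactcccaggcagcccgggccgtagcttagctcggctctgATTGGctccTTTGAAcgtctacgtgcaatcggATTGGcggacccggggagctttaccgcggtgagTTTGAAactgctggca
Cdc20: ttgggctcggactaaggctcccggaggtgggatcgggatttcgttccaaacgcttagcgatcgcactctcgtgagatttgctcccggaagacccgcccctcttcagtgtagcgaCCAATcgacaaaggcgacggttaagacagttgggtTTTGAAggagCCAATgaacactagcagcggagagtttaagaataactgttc
Cdc25b: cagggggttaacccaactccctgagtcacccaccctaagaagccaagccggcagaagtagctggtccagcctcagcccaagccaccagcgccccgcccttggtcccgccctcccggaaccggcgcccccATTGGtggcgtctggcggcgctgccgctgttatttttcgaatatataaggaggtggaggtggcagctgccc
Cdkn1a: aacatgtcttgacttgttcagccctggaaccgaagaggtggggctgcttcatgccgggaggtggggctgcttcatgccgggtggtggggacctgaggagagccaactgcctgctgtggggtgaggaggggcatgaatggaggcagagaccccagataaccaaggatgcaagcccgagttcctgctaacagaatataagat
*Mki67* held 4 CCAAT boxes, 2 CHR elements and an E2F-like site in these 200 bases, and its CHR at 99 bases before the start shares a base with the CCAAT box at 94. *Cdk1* held 2 CCAAT boxes, 2 CHR elements and 2 E2F-like sites, with a CHR 16 bases before the start. In *Top2a* and *Cdc20* a CHR lay at 22 and at 51 bases before the start, beside 2 CCAAT boxes each. *Cdc25b* showed 1 CCAAT box and neither of the other motifs, and *Cdkn1a* none of the 3.

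Over the 250 bases before the start, 88 of the 112 members could be searched. A CCAAT box stood in 27 of 38 promoters (71.1%) of members higher in mcPCs, in 19 of 41 (46.3%) of members within 2-fold and in 2 of 9 (22.2%) of members higher in VSMCs, against 35.2% of 10884 promoters of the table's genes and 34.3% of all 27457 RefSeq promoters. A pair or more of CCAAT boxes stood in 20 of the 38 (52.6%), in 7 of the 41 (17.1%) and in 0 of the 9, against 12.4% of the table's genes and 9.77% of all RefSeq promoters. CHR elements stood in 10 (26.3%), 4 (9.76%) and 1 (11.1%) of the same promoters, against 10.3% and 16%. A CCAAT box together with a CHR, as in *Mki67*, *Top2a*, *Cdk1* and *Cdc20*, stood in 9 (23.7%), 2 (4.88%) and 0, against 3.83% and 5.76%. E2F-like sites went another way, in 7 (18.4%), 14 (34.1%) and 2 (22.2%), against 13.5% and 7.97%. The E2F-like letters TTGGCGC can share bases with a CCAAT box on the other strand, which happened in 1 member, within 2-fold. These groups were formed by the measured ratios, the matches are descriptions of letters in a window, and no test was made.

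Among the mitotic spindle and proliferation markers, 10 of 11 were at least 2-fold higher in mcPCs, against 21.6% of all genes. The median log2 ratio was 2.41. *Mki67*, the gene of the Ki-67 antigen that coats mitotic chromosomes, had 1.17 and 4.53 TPM, a log2 ratio of 3.76 (3.68 to 3.85). *Top2a*, the topoisomerase that untangles replicated DNA, had 1.36 and 4.23 TPM, a log2 ratio of 3.41. *Birc5*, survivin of the chromosomal passenger complex, had 0.938 and 4.12 TPM and a log2 ratio of 3.91. These 3 were 10.6 to 15.0 times higher in mcPCs in mean normalized counts with the pseudocount of 1. *Mki67*, some of whose reads are shared with other genes, exceeded 55.9% of all genes by TPM in mcPCs and 19.4% in VSMCs.

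The kinesins of the spindle followed, each at least 2-fold higher in mcPCs and none above 3 TPM in mcPCs. *Kif4a*, a chromokinesin, had a log2 ratio of 3.15, and *Kif2c*, a microtubule depolymerase of centromeres, 3.13. *Kif11*, which pushes the spindle poles apart, had 1.12 and 1.72 TPM at 2.41. *Kif23* and *Kif20a*, both of cytokinesis, had log2 ratios of 2.26 and 1.18. *Nusap1*, a microtubule-binding protein of the spindle, stood at 2.31, and *Plk4*, the kinase of centriole duplication, at 1.06. *Tpx2*, which activates Aurora A on the spindle, was the exception of the list, with 8.67 and 4.18 TPM and a log2 ratio of 0.73.

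The mitotic kinases, checkpoint proteins and CDC25 phosphatases all had ratios above 0. Of these 12, 6 were past 2-fold toward mcPCs, against 21.6% of all genes. *Cdc25b*, the phosphatase that removes inhibitory phosphates from CDKs at mitotic entry, had 7.59 and 215 TPM. Its mean normalized count was 568 in VSMCs and 58470.3 in mcPCs, 103 times higher, at a log2 ratio of 6.68 (6.63 to 6.75). That level exceeded 98.8% of all genes in mcPCs, and *Cdc25b* alone made up most of the 301.7 TPM that the 46 genes summed to there. Its paralogs were not alike: *Cdc25a* had a log2 ratio of 0.22 and *Cdc25c* 0.41.

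*Plk1*, the polo-like kinase of mitosis, had 0.923 and 1.75 TPM and a log2 ratio of 2.70. The spindle checkpoint kinases *Ttk* and *Bub1* had log2 ratios of 2.66 and 2.21, and the checkpoint protein *Bub1b* 2.61. *Cdc20*, which the checkpoint restrains and which activates the anaphase-promoting complex, was level in TPM, at 4.37 in VSMCs and 4.43 in mcPCs, and had a log2 ratio of 1.86. *Bub3*, the partner of *Bub1* and *Bub1b*, was the most abundant of the checkpoint genes at 48.1 and 14.7 TPM, with a log2 ratio of 0.11. Aurora kinases lay within 2-fold, *Aurka* at 0.84, *Aurkb* at 0.77 and *Aurkc* at 0.08. *Plk2* and *Plk3*, polo-like kinases known as stress-responsive genes, were both higher in VSMCs: *Plk2* had 16.3 and 0.745 TPM at -2.71, and *Plk3* 67.8 and 3.55 TPM at -2.48.

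The cyclins divided by class. Both E cyclins and the A and B cyclins listed were at least 2-fold higher in mcPCs, whereas 2 of the 3 D cyclins were at least 2-fold higher in VSMCs. *Ccne1*, a partner of CDK2 at the start of S phase, had 0.129 and 0.640 TPM, a log2 ratio of 3.90 that rests on 26 and 245 reads and has a counting interval of 3.51 to 4.74. *Ccnb1*, the mitotic partner of CDK1, had 1.21 and 2.66 TPM at 2.90, and *Ccna2*, which acts in S phase and G2, 1.32 and 2.26 TPM at 2.53. *Ccnb3* had a log2 ratio of 1.97 and *Ccne2* of 1.13, both under 1 TPM in mcPCs. *Ccna1* and *Ccnb2* were not analysed here.

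The D cyclins, which couple outside signals to CDK4 and CDK6, were of another order of abundance in VSMCs. In mcPCs *Ccnd1* was close to *Ccnb1*, which had 2.66 TPM there. *Ccnd2* had 328 and 18.8 TPM, a log2 ratio of -2.32, and *Ccnd1*, some of whose reads are shared with other genes, 153 and 3.54 TPM, a log2 ratio of -3.60 (-3.66 to -3.55). *Ccnd3* had 94.9 and 30.9 TPM and a log2 ratio of 0.19. In mcPCs the order was thus *Ccnd3*, *Ccnd2*, *Ccnd1*, and in VSMCs *Ccnd2*, *Ccnd1*, *Ccnd3*.

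**Figure D3:**
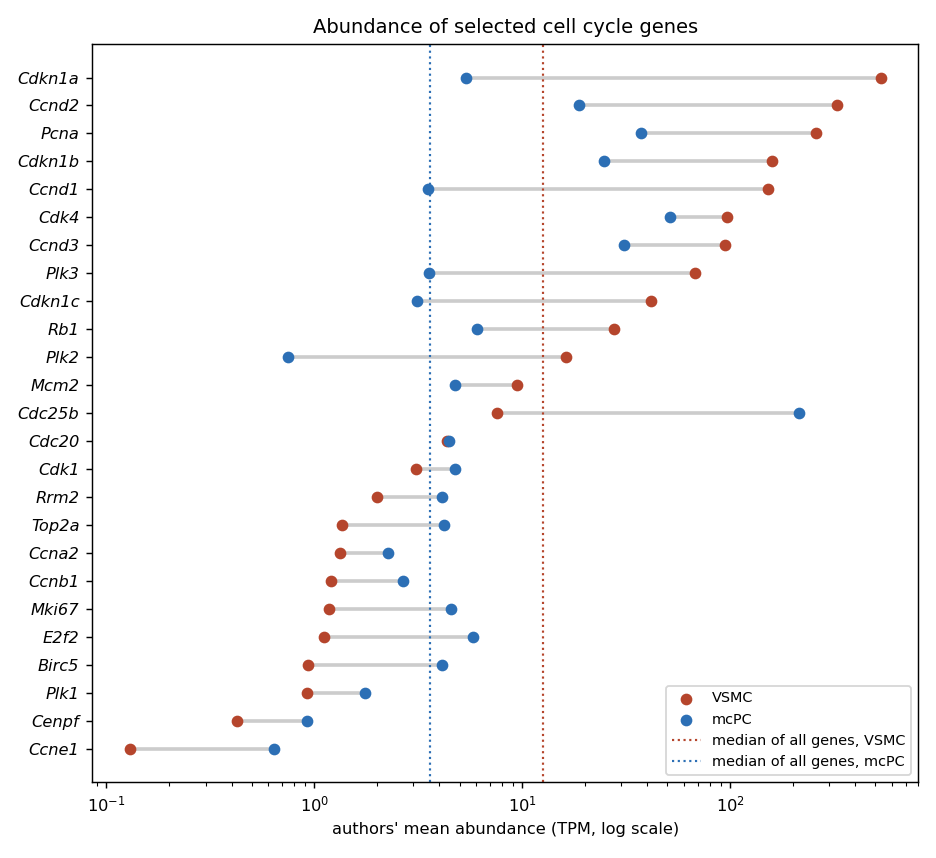
Authors' mean abundance of selected cell cycle genes in VSMCs (red) and mcPCs (blue), in TPM on a log axis, ordered by the VSMC level, with dotted lines at the median of all genes in each cell type (12.7 and 3.59 TPM). *Cdkn1a* spans from 532 TPM in VSMCs to 5.38 TPM in mcPCs, while the genes from *Cdc20* down stay under 6 TPM in both.

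The catalytic partners differed less. *Cdk1*, the mitotic kinase, was the only one of the 4 cell cycle CDKs past 2-fold, with 3.10 and 4.73 TPM and a log2 ratio of 2.40 (2.24 to 2.59). *Cdk4* was abundant in both, at 96.4 and 51.2 TPM, and with a log2 ratio of 0.90 was the member nearest below 2-fold toward mcPCs. Its D cyclin partners *Ccnd1* and *Ccnd2* lay on the other side of 0. *Cdk2* had a log2 ratio of 0.23 and *Cdk6*, the other D cyclin partner, of -0.72.

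The remaining 12 CDKs, most of which act in transcription or outside the cycle, had a median log2 ratio of 0.00 and a range of -1.62 to 0.58. *Cdk18* of the PCTAIRE group, at 8.35 and 0.787 TPM, was the 1 past 2-fold, toward VSMCs. *Cdk9*, the kinase that releases paused RNA polymerase II, had 119 and 19.6 TPM at -0.78. *Cdk16* had 99.4 and 20.1 TPM at -0.47 and *Cdk10* 56.1 and 19.6 TPM at 0.28. *Cdk3*, *Cdk8* and *Cdk15* were not analysed here.

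Among CDK inhibitors and other genes named Cdkn, the CIP/KIP genes were higher in VSMCs. *Cdkn1a*, which encodes p21, had 532 TPM in VSMCs, above 97.9% of all genes, and 5.38 TPM in mcPCs, above 60.7%. Its mean normalized counts were 20027 and 683, which is 29.3 times higher in VSMCs, with a log2 ratio of -4.87 (-4.95 to -4.80). *Cdkn1c*, p57, had 41.6 and 3.11 TPM at -1.94. *Cdkn1b*, p27, had 158 and 24.8 TPM and at -0.87 did not reach 2-fold.

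The INK4 genes, which inhibit CDK4 and CDK6, were low or level. *Cdkn2b*, p15, had 0.535 and 0.0546 TPM at -1.44, on 114 and 25 reads, and its counting interval of -2.21 to -0.89 reached inside 2-fold. *Cdkn2c*, p18, had 11.8 and 3.39 TPM at 0.00. *Cdkn3*, which is a CDK phosphatase despite its symbol, had 3.96 and 4.60 TPM and was the 1 gene of the 8 past 2-fold toward mcPCs, at 1.999. *Cdkn2aip* and *Cdkn2aipnl*, named for a partner of p19ARF, had log2 ratios of -0.20 and 0.26. *Cdkn2a* and *Cdkn2d* were not analysed here.

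The E2F family also divided. *E2f2*, an activator, had 1.12 and 5.83 TPM, a log2 ratio of 4.20 (4.09 to 4.34), and *E2f3*, also an activator, 3.17 and 2.21 TPM at 1.25. The atypical repressors *E2f8* and *E2f7* had log2 ratios of 4.16 and 2.82 at 0.617 and 0.418 TPM in mcPCs, with *E2f8* on only 33 reads over the 3 VSMC samples. *E2f4*, *E2f5* and *E2f6*, the repressors of resting cells, lay between -0.26 and 0.04, and *E2f4* was the most abundant of the family at 33.7 and 10.02 TPM. The pocket proteins lay within 2-fold as well. *Rb1* had 27.7 and 6.08 TPM at -0.39 and *Rbl2*, p130, 24.0 and 6.15 TPM at -0.17. *Rbl1*, p107, had 1.94 and 0.961 TPM at 0.76. *E2f1* was not analysed here.

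Of the 19 origin licensing and replication start genes, 7 passed 2-fold toward mcPCs and 1 toward VSMCs. The shares of all genes were 21.6% and 13.8%. Subunits of single complexes were spread. In the MCM2-7 helicase *Mcm5* had 1.78 and 3.15 TPM at 2.59 and *Mcm3* 2.74 and 3.99 TPM at 2.32. *Mcm6*, *Mcm2* and *Mcm7* stood at 0.86, 0.78 and 0.62, and *Mcm4*, with 30.3 and 4.42 TPM, at -0.99. *Mcm7*, at 19.3 and 8.55 TPM, and *Mcm4* were the most abundant of the 6 in VSMCs, so the order of the subunits was not the same in both cell types.

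Outside the hexamer, *Mcm10*, which helps to start the fork, had a log2 ratio of 2.85 at 0.480 TPM in mcPCs, and *Cdc45*, a part of the active helicase, 2.28 at 0.378 TPM. *Mcm8*, a helicase of recombination repair, was the 1 toward VSMCs, with 2.68 and 0.368 TPM at -1.10, and its counting interval of -1.31 to -0.90 reached inside 2-fold. Its partner *Mcm9* stood at 0.12. The loader *Cdc6* had a log2 ratio of 2.05, its fellow loader *Cdt1* 0.81, and *Gmnn*, geminin, which blocks *Cdt1* after S phase starts, 1.38.

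The origin recognition complex was nearly flat but for 1 subunit. *Orc1*, the subunit whose level varies with the cycle in many cells, had 0.542 and 0.358 TPM at 1.19, with a counting interval of 0.90 to 1.54 on 155 and 181 reads. *Orc2*, *Orc3*, *Orc4* and *Orc5* ranged from -0.51 to -0.07, and *Orc6* stood at 0.74. *Orc5* and *Orc2* were the most abundant, at 25.1 and 20.5 TPM in VSMCs and 5.11 and 5.62 TPM in mcPCs.

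Among the S phase and nucleotide synthesis genes only *Rrm2*, the small subunit of ribonucleotide reductase made in S phase, was past 2-fold toward mcPCs, with 1.99 and 4.11 TPM at 2.79. Its large partner *Rrm1* had 29.0 and 7.85 TPM at -0.09, and *Rrm2b*, the small subunit used for repair in resting cells, 10.7 and 2.56 TPM at -0.26. *Tyms*, thymidylate synthase, had a log2 ratio of 0.28. *Pcna*, the sliding clamp of replication and repair, was abundant in both at 258 and 37.5 TPM, and its log2 ratio of -0.99, with a counting interval of -1.02 to -0.95, sat at the 2-fold line toward VSMCs.

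The 18 CENP genes were mixed, with 11 at least 2-fold higher in mcPCs and 3 in VSMCs, against 21.6% and 13.8% of all genes. *Cenpf*, a kinetochore protein of G2 and mitosis, had 0.424 and 0.927 TPM at 2.90 on 520 and 2011 reads. *Cenpa*, the histone H3 variant that marks centromeres, had 0.651 and 0.752 TPM at 1.92, and *Cenpe*, a kinetochore kinesin, 1.04 and 0.683 TPM at 1.196. Members of the inner kinetochore ranged down from *Cenph*, at 3.16, through *Cenpu* (2.93), *Cenpq* (2.61), *Cenpw* (2.57), *Cenpm* (2.32), *Cenpk* (1.94) and *Cenpt* (1.76) to *Cenpi* at 1.05. All 11 were between 0.434 and 1.61 TPM in mcPCs.

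The 3 CENP genes toward VSMCs had the highest TPM of the 18 in VSMCs, though not all of them in mcPCs. *Cenpb*, which binds a repeat of satellite DNA, had 154 and 14.2 TPM at -1.61, *Cenpv* 22.3 and 1.85 TPM at -1.79, and *Cenpl*, an inner kinetochore subunit, 17.9 and 2.03 TPM at -1.33. *Cenpc*, the scaffold of the inner kinetochore, stood at -0.05 and *Cenpj*, a centriole protein in spite of its symbol, at -0.03. *Cenpo* and *Cenpn* stood at 0.73 and 0.20. The last 3 members were taken by symbol only and are named for a partner: *Aurkaip1*, at 298 and 79.0 TPM, *Mcm3ap* and *Ccnb1ip1* had log2 ratios of -0.12, -0.41 and -0.01.

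The order of the 10 larger roles was the same on the scales compared, while their position against 0 did not. The spindle and proliferation markers had a median log2 ratio of 2.41 on normalized counts, 1.81 with counts scaled to the same total and 0.58 on TPM as it stands. The origin licensing genes went from 0.78 to 0.23 and -0.98 on the same scales, and the CDK inhibitors from -0.54 to -1.10 and -2.01. Ratios of single genes are therefore to be read against the median of all genes, which moved from 0.01 to -0.55 and -1.72.

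**Figure D4:**
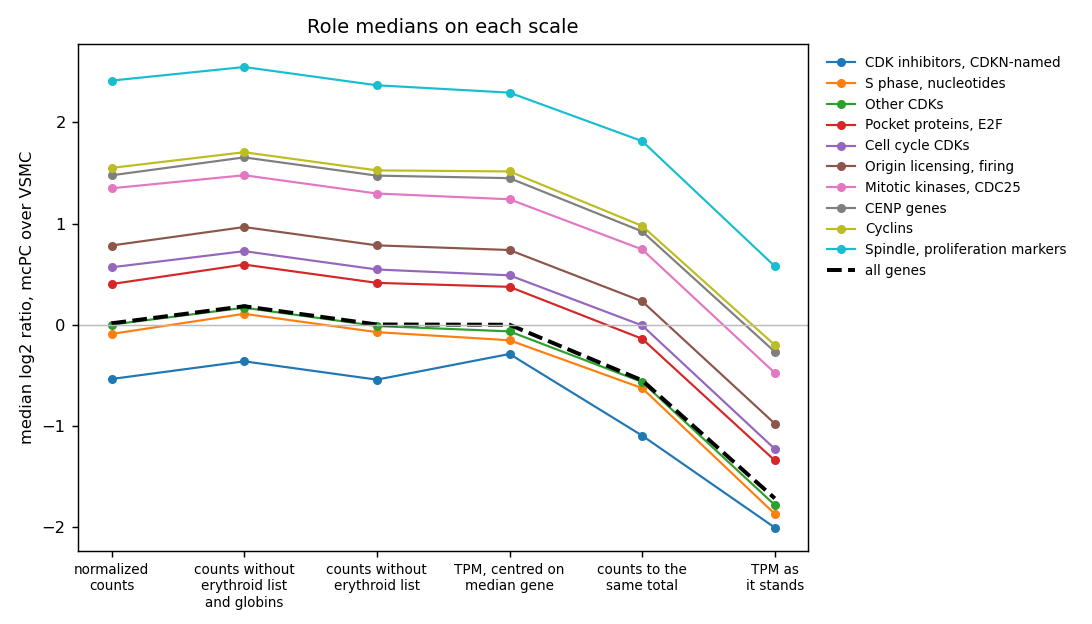
Median log2 ratio, mcPC over VSMC, of each role (coloured lines) and of all genes (dashed) on 6 scales of the same values. The spindle and proliferation markers stay highest on each of the 6, at 0.58 on TPM as it stands where all genes have -1.72. The lines of all other roles shown lie below 0 there.

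Genes of the same pathways outside the symbol rule were read from lists. Of 36 further mitotic genes 30 passed 2-fold toward mcPCs and 1 toward VSMCs, against 21.6% and 13.8% of all genes. Their median was 2.01. They included *Stmn1*, a microtubule destabiliser, at 39.4 and 64.6 TPM and 2.52, *Hmgb2* at 21.6 and 18.6 TPM and 1.56, *Cks2*, a CDK-binding protein, at 5.59 and 16.6 TPM and 3.31, the ubiquitin enzyme *Ube2c* at 3.78, and *Pttg1*, securin, at 3.91. Of 32 further replication genes 12 were past 2-fold toward mcPCs and 0 toward VSMCs, against the same shares of all genes. Their median was 0.67. *Tk1*, thymidine kinase, had 2.25 and 19.6 TPM at 4.95, *Uhrf1* and *Asf1b*, both of chromatin replication, stood at 3.27 and 3.22, and the abundant *Rpa1*, *Dut* and *Lig1* lay between -0.87 and 0.53. *Ccnf*, the F cyclin, was not taken by the symbol rule and stood at 3.26.

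Of 14 further regulators 3 were past 2-fold toward mcPCs and 1 toward VSMCs, against 21.6% and 13.8% of all genes. *Mybl2*, B-Myb, which joins the MuvB complex to switch on mitotic genes, had 0.242 and 1.11 TPM at 3.94. *Tfdp2*, a dimer partner of E2F, had 6.69 and 27.2 TPM at 3.92, and *Fzr1*, an activator of the anaphase-promoting complex, 19.8 and 22.8 TPM at 2.04. *Cdh1*, at 4.01, was on the list as well but is the symbol of E-cadherin, an adhesion protein, and was left out of these counts after its value was seen; with it they are 4 and 1 of 15. *Lin52*, a MuvB subunit, was the 1 toward VSMCs at -1.04, and *Rbbp4* had 50.3 and 16.6 TPM at 0.22.

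Most markers of cell types other than mural cells had the same direction in normalized counts as the group higher in mcPCs. Each of the 12 erythroid markers with a value (of 18) was higher in mcPCs, summing to 7152 and 541910.0 TPM. So were all of the microglia and macrophage markers with a value (6 of 12, 0.749 and 24.5 TPM), the immature neuron markers (7 of 12, 1.92 and 37.4 TPM) and the astrocyte markers (4 of 8, 0.582 and 15.7 TPM). The lymphocyte and granulocyte markers (2 of 12) summed to 0.988 and 8.54 TPM, the neural progenitor markers (3 of 7) to 2.93 and 4.87 TPM and the oligodendrocyte precursor markers (4 of 8) to 5.11 and 9.07 TPM. In normalized counts 1 of these 2, 2 of these 3 and all 4 were at least 2-fold higher in mcPCs, against 21.6% of all genes.

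Endothelial markers (14 of 15) summed to 540 and 225 TPM, mostly *Esam*, which mural cells also express. Yet 10 of the 14, with *Cldn5* at 0.643 and 15.4 TPM among them, were at least 2-fold higher in mcPCs, against 21.6% of all genes. The oligodendrocyte markers (6 of 7) summed to 19.9 and 19.1 TPM, but 5 of the 6 passed 2-fold toward mcPCs in normalized counts, against the same share. The fibroblast markers (5 of 6) summed to 139 and 55.7 TPM, mostly *Col1a1* at a log2 ratio of -0.13. The other 4 passed 2-fold toward mcPCs, against the same share of all genes. The 11 spindle and proliferation markers summed to 23.03 and 29.1 TPM. In mcPCs that lay between the microglia and immature neuron sums, 24.5 and 37.4 TPM, whose lists had 0.749 and 1.92 TPM in VSMCs. Such sums depend on which genes are listed and have a value, and do not measure the share of a cell type. The part of cells other than mural cells in the higher values of the 46 genes was not tested.

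**Figure D5:**
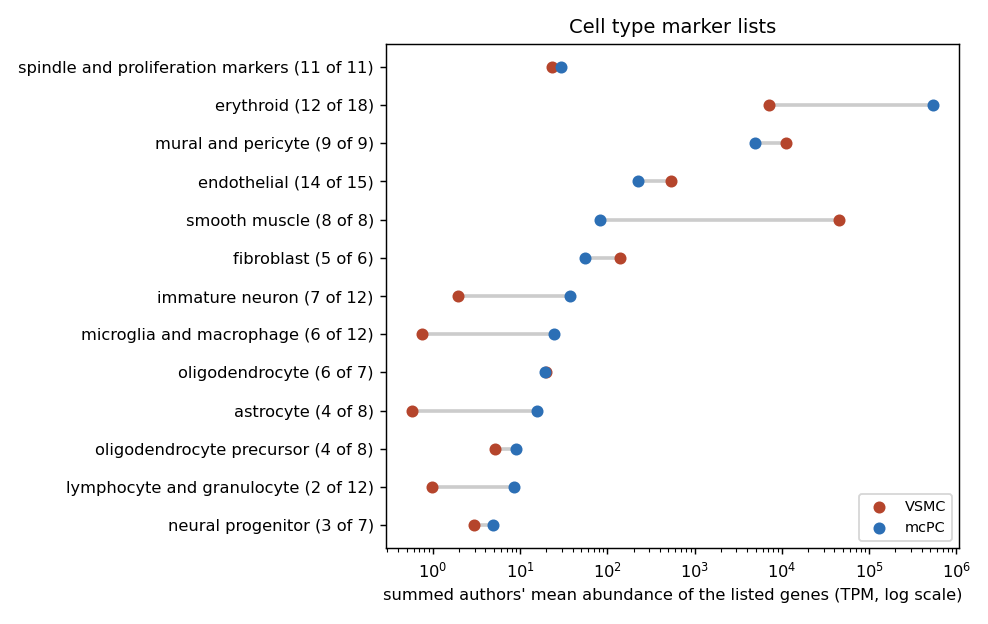
Summed authors' mean abundance of each cell type marker list in VSMCs (red) and mcPCs (blue), in TPM on a log axis, with the number of listed genes that had a value, and the sum of the 11 spindle and proliferation markers on top. The erythroid sum is 541910.0 TPM in mcPCs, and the spindle sum of 29.1 TPM lies between those of the microglia and immature neuron lists.

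The direction of the members higher in VSMCs was shared by another set. Of 19 immediate-early and stress genes 17 were at least 2-fold higher in VSMCs and 0 in mcPCs, with a median log2 ratio of -3.61. The shares of all genes were 13.8% and 21.6%. *Fos* had 4441 and 45.2 TPM at -4.86, *Zfp36* 4153 and 69.3 TPM at -4.13, *Junb* 2705 and 65.5 TPM at -3.61, and *Atf3* 652 and 8.15 TPM at -4.56. Of 15 p53 target genes 5 were past 2-fold toward VSMCs and 1 toward mcPCs, against the same shares, with a median of -0.04. Those 5 included *Gadd45g*, at 2271 and 12.8 TPM and -5.72, and *Gadd45b*, at 1691 and 16.4 TPM and -4.89. *Btg2*, at 781 and 32.9 TPM and -2.78, was another. The rest of the 5 were *Phlda3*, at 18.2 and 0.940 TPM and -2.47, and *Gadd45a*, at 146 and 13.3 TPM and -1.67. The *Gadd45* genes and *Btg2* are also known to respond to stress signals in general. A further 9 p53 targets lay within 2-fold, among them *Mdm2* at -0.22, *Ccng1* at 0.07 and *Bax* at 0.73. A part of p53 in these values was not tested. *Pmaip1*, at 2.05, was the 1 toward mcPCs. VSMCs were freed by a further and harsher digestion than mcPCs, and the part of the procedure in the values of *Cdkn1a*, *Ccnd1*, *Plk2* and *Plk3* cannot be told apart from that of the cell type.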

How the data were processed

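Poly(A)+ RNA of 3 VSMC and 3 mcPC samples was sequenced in strand-specific single-end libraries, each run 4 times. The authors trimmed and filtered reads with Eoulsan, estimated transcripts with Salmon 0.8.0 against Ensembl cDNA (Rnor_6.0), collapsed these to genes by tximport and used DESeq2 for normalization. The authors kept genes with at least 1 read in every sample, so genes below that have no value. The deposited table holds TPM, the mean length-scaled abundance of each cell type as the authors computed it. The estimated counts deposited by the authors are means per sequencing run, as their totals and the whole multiples of 1 read show, so a cell type's reads are that mean times 12 runs. A read total was taken as whole within 0.01, and 21 members whose totals were not share reads with other genes. The normalized counts, deposited by the authors as a signal, are counts divided by DESeq2's factors, which include transcript length. The effective length deposited by the authors was used to check that it changed by over 10% in only 2 members, *Nusap1* and *Cdkn2b*. The authors' own comparison columns (log2 fold change, standard error, p-value, adjusted p-value) were not used. The per-sample test planned for counts was not run, because the table gives means.

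From these values log2 ratios with a pseudocount of 1, exact Poisson intervals of reads and exact Clopper-Pearson intervals of ratios (95%) were computed with Python 3.11.15, pandas 2.3.3 and scipy 1.17.1, and checked on simulated data. Marker and gene lists, the symbol rule and the roles were chosen with earlier results of these data known. Genes are named with values where they were past 2-fold, among the 3 highest of a role by TPM, or a defining proliferation gene, and others to complete a family after their values were seen. Promoters came from RefSeq (GRCr8, first entry per gene), not the build of the counts. Alternatives were TPM with and without centring, counts scaled to the same total, also without erythroid genes or globins, other pseudocounts (0.1 and 10), folds (1.5 and 4) and minimum values (0.8 TPM in VSMCs or 100 reads).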

Additional observations from a re-analysis of the deposited data

How the results depend on the processing

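The counts of 46 members past 2-fold toward mcPCs and 12 toward VSMCs stayed within 1.5 times under centring on the median gene, counts without the erythroid list or also without globins, pseudocounts of 0.1 and 10, at least 100 reads, and leaving out members with shared reads. On TPM as it stands they were 12 and 57. Toward VSMCs the count was 20 with counts scaled to the same total, 19 at 1.5-fold and 5 at 4-fold. With at least 0.8 TPM in VSMCs, 25 members passed toward mcPCs, among 89 instead of 112. On TPM as it stands 8 members past 2-fold toward mcPCs turned below 0: *Cenpi* to -0.57, *Cenpe* to -0.54, *Ccne2* to -0.59, *Plk4* to -0.64, *Kif20a* to -0.59, *Orc1* to -0.49, *Gmnn* to -0.39 and *E2f3* to -0.50. No other setting reversed a member past 2-fold. Members within 2-fold could change sign, as *Ccnd3* did from 0.19 to -0.36 with counts scaled to the same total. The median of all genes is -1.72 on TPM as it stands and -0.55 with counts scaled to the same total, and the cause was not tested.

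No paired analysis was possible because the table gives 1 mean per cell type, and for the same reason no sample was left out in turn. Depth limits *Ccne1*, *E2f8* and *Cenph*, with 26, 33 and 48 reads in VSMCs, and *Cdkn2b* and *Ccnb1ip1*, with 25 and 23 reads in mcPCs. The counting interval of 7 members spans a ratio of 0.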

Other observations

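The cyclins outside the division cycle all lay within 2-fold. Of 10 such genes 0 passed 2-fold in either direction, against 35.4% of all genes. Their median log2 ratio was -0.44 and their range -0.71 to 0.79. *Ccni* was the most abundant at 206 TPM in VSMCs and 35.6 TPM in mcPCs, followed by *Ccny* at 44.1 and 9.78 TPM and *Ccnt2*, a partner of CDK9 in transcription, at 29.5 and 6.27 TPM. *Ccng2*, which is linked to cell cycle exit, had the highest ratio of the 10, at 0.79.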
